A study of Arabidopsis thaliana with 9 samples.

Results

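The circadian clock of Arabidopsis thaliana was followed through the transcripts of its 10 core genes, CCA1, LHY, PRR9, PRR7, PRR5, TOC1, GI, ELF3, ELF4 and LUX. They were taken by locus identifier from a count table and a TPM table of 25760 genes, and all 10 were present and passed the filter on low counts, as did 22671 genes in all. RNA came from dissected inflorescence meristems, the shoot tips that form flowers, in 3 genotypes with 3 libraries each. The first, called complemented here, is labelled pATML1::GFP+CSLD5-csld5: the csld5 mutant with a transgene in which the promoter of ATML1, a gene of the outermost cell layer, drives CSLD5 together with GFP. The second is the csld5 mutant without a transgene, and the third is the wild type col-0. CSLD5 encodes a cellulose synthase-like protein. The labels used here do not give the plants' age, the light cycle or the time of day at harvest, nor whether replicate libraries are separate plants or batches, so p-values cover only the spread between these libraries.

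The plant clock is a set of genes that repress each other in turn over the day. The MYB proteins CCA1 and LHY appear around dawn and bind the evening element in the promoters of later genes. The pseudo-response regulators PRR9, PRR7, PRR5 and TOC1 follow one another from morning to evening and repress CCA1 and LHY, while GI stabilises the F-box protein ZTL, which removes TOC1 and PRR5 protein. ELF3, ELF4 and LUX form the evening complex, a repressor of the early night. Because each gene has its own time of day, a single harvest gives one point on 10 different daily curves, and a difference between genotypes and a difference in harvest time cannot be told apart in these data.

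Sequences upstream of 6 genes are shown because they carry letters known as sites of clock proteins or, in CCA1 and LHY, of light-related proteins. They come from the RefSeq genome TAIR10.1, run 5′ to 3′ on the strand of the gene, and cover the 250 bases before the annotated gene start, except that GI is shown further upstream, where its evening elements lie. Capitals mark the evening element (AAAATATCT), the CCA1-binding site (AAAAATCT), the G-box (CACGTG, a site of light-related bZIP and bHLH proteins) or the LUX-binding site (GATACG), each sought on both strands.
CCA1 (chr2:19245341-19245590, + strand): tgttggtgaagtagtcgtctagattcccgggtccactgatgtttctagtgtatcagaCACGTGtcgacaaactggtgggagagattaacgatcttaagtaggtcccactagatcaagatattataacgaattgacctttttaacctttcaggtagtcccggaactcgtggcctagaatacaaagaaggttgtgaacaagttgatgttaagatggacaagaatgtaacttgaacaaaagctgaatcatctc
LHY (chr1:37872-38121, - strand): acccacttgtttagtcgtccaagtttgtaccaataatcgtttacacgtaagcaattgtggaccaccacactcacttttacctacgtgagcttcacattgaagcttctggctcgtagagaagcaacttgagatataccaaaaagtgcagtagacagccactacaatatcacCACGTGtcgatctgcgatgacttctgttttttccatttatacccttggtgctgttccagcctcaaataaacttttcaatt
PRR5 (chr5:8358547-8358796, - strand): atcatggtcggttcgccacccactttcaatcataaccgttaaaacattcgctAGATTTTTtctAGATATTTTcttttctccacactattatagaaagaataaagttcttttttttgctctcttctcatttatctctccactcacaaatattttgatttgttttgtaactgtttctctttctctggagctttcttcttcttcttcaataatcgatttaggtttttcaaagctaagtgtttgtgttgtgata
TOC1 (chr5:24674713-24674962, + strand): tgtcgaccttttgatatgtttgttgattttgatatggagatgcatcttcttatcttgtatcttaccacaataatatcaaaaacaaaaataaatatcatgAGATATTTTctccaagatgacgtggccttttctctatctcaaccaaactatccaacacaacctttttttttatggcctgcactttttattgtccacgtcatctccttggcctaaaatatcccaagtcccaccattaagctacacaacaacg
LUX (chr3:17182792-17183041, + strand): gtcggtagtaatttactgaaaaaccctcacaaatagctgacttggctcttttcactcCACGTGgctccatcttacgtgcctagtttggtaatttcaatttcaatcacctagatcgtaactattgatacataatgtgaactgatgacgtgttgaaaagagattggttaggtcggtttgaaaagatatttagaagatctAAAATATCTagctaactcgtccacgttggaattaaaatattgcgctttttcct
GI (chr1:8060921-8061170, + strand): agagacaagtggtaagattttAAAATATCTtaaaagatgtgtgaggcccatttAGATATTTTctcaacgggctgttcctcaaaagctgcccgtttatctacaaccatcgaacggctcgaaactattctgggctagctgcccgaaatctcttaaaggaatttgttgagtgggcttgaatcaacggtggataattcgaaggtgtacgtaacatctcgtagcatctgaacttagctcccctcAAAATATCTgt

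An evening element lay within these 250 bases in 3 of the 10 genes, PRR5, TOC1 and LUX, against 2.36% of 27443 promoters of the same length. In PRR5 it began at position -187 and in TOC1 at -151, both on the minus strand, and in LUX at -53 on the plus strand, counted from the gene start. The CCA1-binding site stood in PRR5 alone among the 10, beside its evening element and not overlapping it, against 6.69% of all promoters. A G-box was found in CCA1, LHY, PRR9, PRR7 and LUX, 5 of 10, against 6.49% of all promoters, and PRR9 held 2 of them. The LUX-binding site occurred in ELF3 and ELF4, against 4.59%. Over 1000 bases the evening element was present in 5 of the 10, with GI and ELF4 added, against 7.24% of promoters, and GI and PRR5 held 3 each. Over that length the G-box stood in 5 of 10 against 14.8% of promoters. The CCA1-binding site stood in 3 of 10 against 21.1%, and the LUX-binding site in 3 of 10 against 16.9%. A match describes letters in a window and is not a measured binding site.

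**Figure D1:**
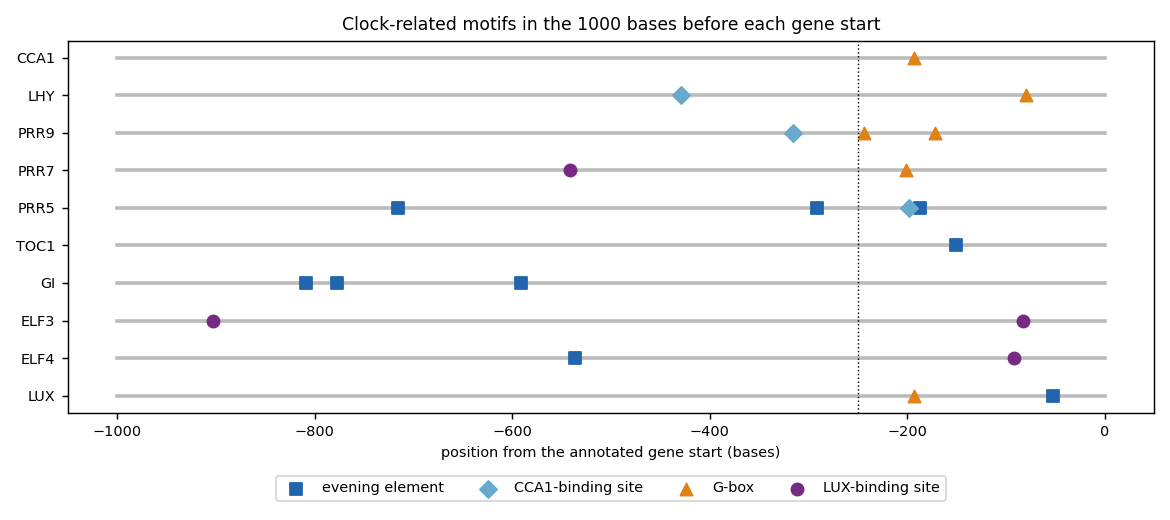
Positions of 4 motifs in the 1000 bases before each clock gene's annotated start (x axis, bases; 1 row a gene; the dotted line marks the 250 bases). Evening elements lie in PRR5, TOC1, GI, ELF4 and LUX, and the G-boxes all lie within 250 bases in CCA1, LHY, PRR9, PRR7 and LUX.

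Total counts were 35543318 to 45679471 per library. CSLD5, the check of the labels, averaged 935 ± 78.3 CPM in complemented, 27.3 ± 0.726 CPM in csld5 and 130.9 ± 4.35 CPM in col-0 libraries (CPM, counts scaled to library size with TMM factors; mean ± SD, n = 3). Among 22671 genes, 41.5% were called in csld5 against col-0, 40.9% in complemented against csld5 and 1.53% in complemented against col-0 (edgeR's quasi-likelihood test, Benjamini-Hochberg adjusted p below 0.05 over all tested genes). These shares are the background for counts of calls by this test below. No all-gene share is set beside counts at an unadjusted p or calls by DESeq2 or limma. Those counts are therefore not read as results about the genes listed. Each pair of comparisons shares libraries, so their values are given side by side and their likeness is not a result. Of the meristem markers, CLV3 had 0 to 4 reads in any library, while the other 7 of the 8 were detected. The markers' levels are set beside the clock results further on.

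On the length-scaled TPM values the 10 transcripts spanned a wide range in every genotype. PRR7 was the most abundant, with 79.2 to 85.6 TPM in complemented, 74.8 to 88.3 TPM in csld5 and 80.1 to 86.0 TPM in col-0 libraries. LHY was the least abundant, with 4.64 to 5.20, 4.59 to 4.75 and 5.94 to 7.64 TPM in the same order. In col-0 the mean levels after PRR7 were 50.5 TPM for ELF4, 41.6 for PRR5, 38.2 for TOC1, 30.5 for ELF3, 23.4 for GI, 15.5 for LUX, 11.5 for PRR9, 11.45 for CCA1 and 6.65 for LHY. Of these neighbours the libraries of ELF4 and PRR5, of PRR5 and TOC1, and of PRR9 and CCA1 overlapped in range, and the others did not. The order differed in csld5, where PRR5 (61.6 TPM) stood above ELF4 (54.1 TPM) with 54.7 to 66.7 against 51.4 to 56.2 TPM, and GI (38.2 TPM) above ELF3 (35.9 TPM), each with overlapping ranges. CCA1 (11.68 TPM) also stood above PRR9 (10.9 TPM) in csld5, with 11.44 to 11.85 against 10.66 to 11.24 TPM, without overlap. In complemented libraries ELF4 averaged 68.4 TPM, with 59.7 to 83.3 TPM, and its highest library lay inside the range of PRR7.

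**Figure D2:**
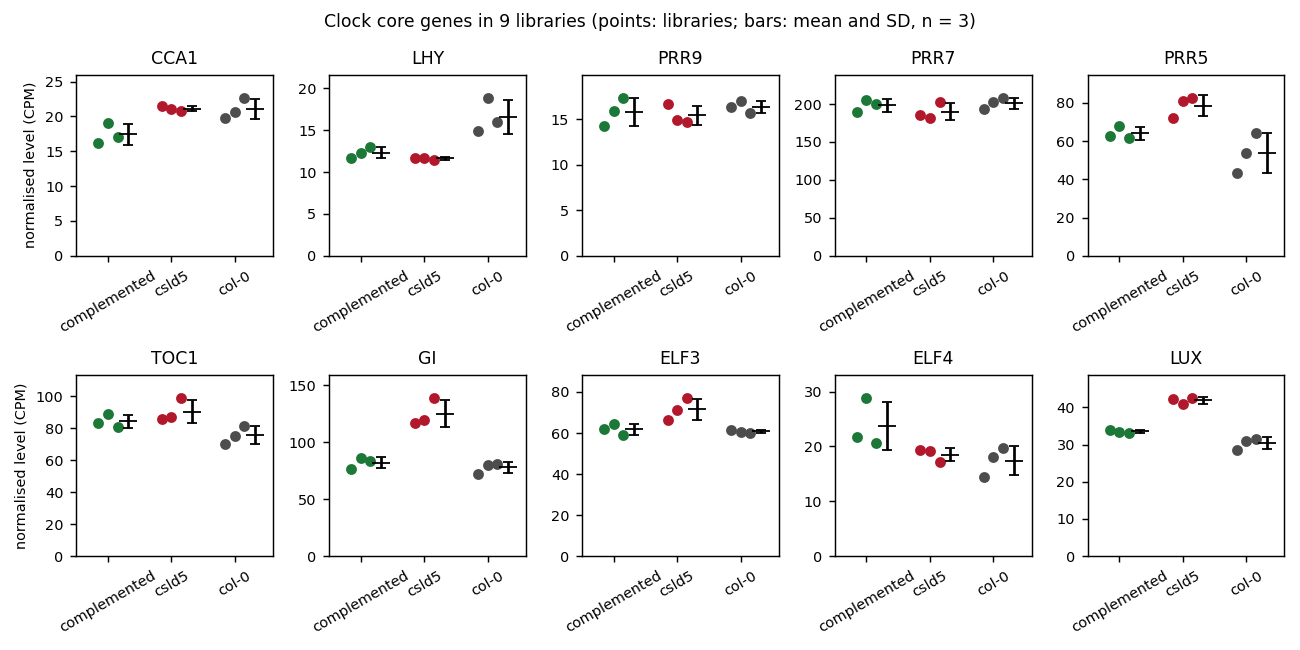
Normalised level (CPM, y axis from 0) of the 10 clock core genes in each library of complemented, csld5 and col-0 plants. Points are libraries and bars the mean and SD of 3. GI and LUX are higher in all csld5 libraries than in the other 6, and LHY is lower in all complemented and csld5 libraries than in col-0.

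In csld5 against col-0, 5 of the 10 core genes rose (GI, PRR5, LUX, TOC1 and ELF3), LHY fell, and 4 did not pass the test. The 6 called of 10 stand beside 41.5% of all tested genes. The 5 higher stand beside 21.1% of all genes and the 1 lower beside 20.4%. The median log2 fold change of the 10 was 0.16, against -0.020 over all tested genes. In 6 of the 10 genes the csld5 and col-0 libraries did not overlap, and 51.0% of all genes showed that. Scaling by library totals alone shifted the all-gene median to -0.10 and gave 3 core genes higher and 2 lower, beside 43.7% of all genes called. An offset fitted to exon GC content and length, called the GC-length offset here, gave 3 higher (GI, LUX and ELF4) and 1 lower (LHY), beside 33.1% of all genes called, 15.4% higher and 17.7% lower. In bulk tissue, fewer cells that express a gene and less RNA per cell cannot be told apart, here and in every comparison.

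In complemented against csld5, 5 core genes fell (GI, LUX, CCA1, ELF3 and PRR5), ELF4 rose, and 4 did not pass. Of all genes 40.9% were called, 19.8% higher and 21.1% lower. The libraries did not overlap in 6 of the 10 genes, beside 51.6% of all genes. The median of the 10 was -0.16, against 0.017 over all genes. Under the GC-length offset GI and LUX, both lower, were the 2 called, beside 26.5% of all genes, 11.4% higher and 15.2% lower, and library totals gave 2 higher and 2 lower, beside 42.3%. Between complemented and col-0 libraries LHY alone was called, lower, beside 1.53% of all genes called, 0.948% higher and 0.578% lower. It was called under the GC-length offset too. Library totals gave 0 calls, beside 1.55% of all genes. DESeq2 called 2, LHY lower and ELF4 higher, given without its all-gene share as a background. Libraries did not overlap in 4 of the 10 (CCA1, LHY, ELF4 and LUX), beside 19.5% of all genes. Unadjusted p-values were below 0.05 for 6 of the 10 in that comparison, a count for which the 1.53% is no background.

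**Figure D3:**
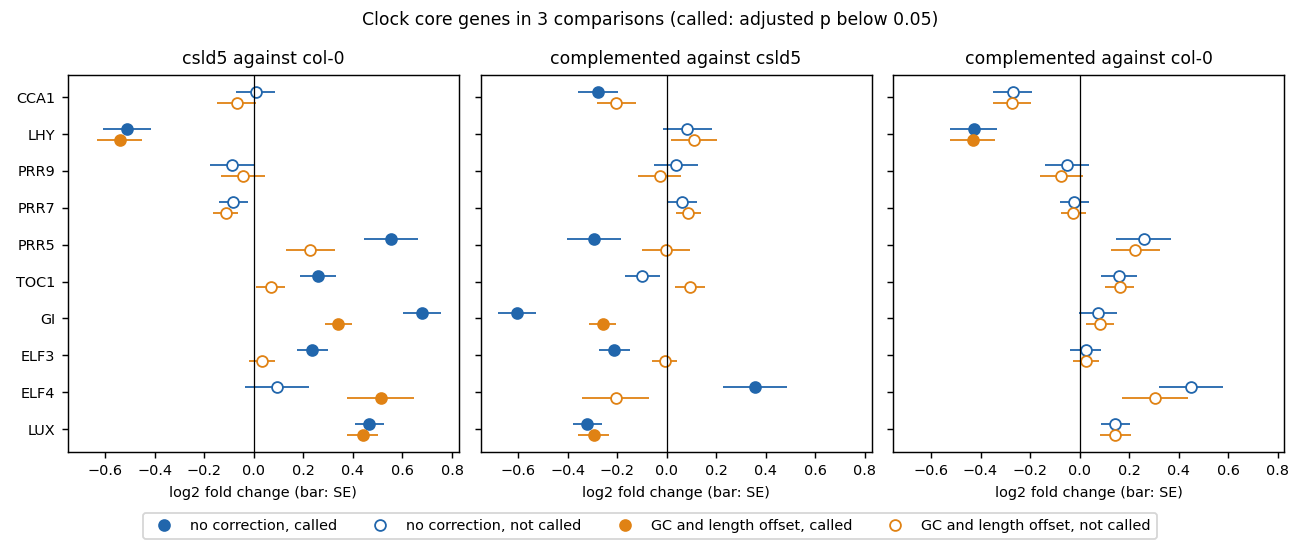
Log2 fold change (x axis; bars, SE) of each clock core gene in the 3 comparisons, without (blue) and with (orange) the GC-length offset. Filled points are called. In csld5 against col-0, LHY (-0.51 and -0.54), GI (0.68 and 0.34) and LUX (0.47 and 0.44) are called both ways, while ELF4 is called only with the offset (0.51).

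The dawn genes CCA1 and LHY are close relatives with overlapping roles. LHY was lower in csld5 and CCA1 in complemented libraries. LHY (AT1G01060, chromosome 1) measured 11.6, 12.3 and 12.98 CPM in complemented libraries, 11.7, 11.7 and 11.4 CPM in csld5 libraries and 14.9, 18.8 and 15.9 CPM in col-0 libraries. All 6 libraries with the csld5 mutation were below all 3 of col-0. LHY fell in csld5 by 0.51 ± 0.10 on the log2 scale (SE; adjusted p = 0.001, edgeR's quasi-likelihood test) and was not called in complemented against csld5 (0.083 ± 0.10). It rested on 421 to 844 reads a library, and its value under the GC-length offset was -0.54. Against col-0, complemented libraries had LHY lower by 0.43 ± 0.10 (adjusted p = 0.043, edgeR). That call was lost when any 1 library was left out other than csld5 replicate 1, with values from -0.50 without col-0 replicate 1 to -0.33 without col-0 replicate 2. Library totals (-0.42) and limma on TPM (-0.42 to -0.36) ended it too.

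CCA1 (AT2G46830, chromosome 2) measured 16.2, 19.1 and 17.0 CPM in complemented, 21.5, 21.1 and 20.8 CPM in csld5 and 19.8, 20.7 and 22.6 CPM in col-0 libraries. The csld5 and col-0 ranges overlapped, and every complemented library was below the other 6. The change in csld5 against col-0 was 0.0067 ± 0.08. CCA1 fell in complemented against csld5 by 0.28 ± 0.08 (adjusted p = 0.014, edgeR's quasi-likelihood test). That call was lost without complemented replicate 1 (-0.23), with library totals (-0.18) and under the GC-length offset (-0.20). Against col-0 the complemented value was -0.27 ± 0.08 and did not pass (adjusted p = 0.14, edgeR).

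Of the pseudo-response regulators, PRR5 rose in csld5 and PRR9 and PRR7 did not pass in any comparison. PRR5 (AT5G24470, chromosome 5), which acts in the afternoon, measured 62.5, 68.0 and 61.7 CPM in complemented, 72.2, 81.2 and 82.4 CPM in csld5 and 43.1, 53.8 and 64.0 CPM in col-0 libraries. All csld5 libraries were above all others, and complemented and col-0 overlapped at the highest col-0 library. PRR5 rose in csld5 against col-0 by 0.55 ± 0.11 (adjusted p = 0.0014, edgeR's quasi-likelihood test), but stood at 0.23 and was not called under the GC-length offset. At 45.7% GC its exons were the richest in GC among the 10 genes. PRR5 fell in complemented against csld5 by 0.29 ± 0.11 (adjusted p = 0.045, edgeR), and under the offset the value was -0.0027. That call was also lost without col-0 replicate 2, csld5 replicate 2 or 3, or any 1 complemented library, with values from -0.34 without complemented replicate 2 to -0.26 without csld5 replicate 3, as it was with library totals (-0.20) and limma on TPM (-0.31).

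PRR7 (AT5G02810, chromosome 5), a morning repressor, was the steadiest of the 10. Its levels were 188.9, 205.1 and 200.5 CPM in complemented, 185.8, 181.3 and 202.4 CPM in csld5 and 193.1, 202.3 and 207.7 CPM in col-0 libraries, with all 3 genotypes overlapping. Its 9 libraries spanned 0.20 on the log2 scale, and the log2 fold changes were -0.083 ± 0.06 for csld5 over col-0, 0.062 ± 0.06 for complemented over csld5 and -0.021 ± 0.06 for complemented over col-0. With library totals the change in csld5 was -0.16 and was called. PRR9 (AT2G46790, chromosome 2), the earliest of the family, ran from 14.2 to 17.3 CPM in complemented, 14.7 to 16.7 CPM in csld5 and 15.7 to 17.1 CPM in col-0 libraries, again overlapping throughout. The same fold changes of PRR9 were -0.087 ± 0.09, 0.037 ± 0.09 and -0.049 ± 0.09. A p above the threshold does not show that PRR7 and PRR9 were equal between genotypes.

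TOC1 (AT5G61380, chromosome 5), the evening member of the family, measured 83.3, 89.0 and 81.1 CPM in complemented, 85.7, 87.0 and 98.6 CPM in csld5 and 70.2, 75.02 and 81.6 CPM in col-0 libraries. All csld5 libraries were above all col-0 libraries, while complemented libraries overlapped both. TOC1 rose in csld5 against col-0 by 0.26 ± 0.07 (adjusted p = 0.011, edgeR's quasi-likelihood test). The call was lost without col-0 replicate 1 (0.21), with library totals (0.18) and under the GC-length offset (0.068). The other comparisons gave -0.099 ± 0.07 in complemented against csld5 and 0.16 ± 0.07 in complemented against col-0, and neither passed.

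GI showed the largest change of the 10 in csld5 against col-0, but not under the GC-length offset, where LHY (-0.54), ELF4 (0.51) and LUX (0.44) changed more than GI (0.34). GI (AT1G22770, chromosome 1), a large protein of the evening that also promotes flowering, measured 76.5, 86.5 and 83.7 CPM in complemented, 116.6, 119.9 and 138.5 CPM in csld5 and 72.5, 80.3 and 81.3 CPM in col-0 libraries. Every csld5 library lay above the other 6, and complemented and col-0 libraries overlapped. GI rose in csld5 by 0.68 ± 0.08, or 1.60-fold (adjusted p = 2e-05), and fell in complemented against csld5 by 0.60 ± 0.08 (adjusted p = 5.9e-05, edgeR's quasi-likelihood test for both). Complemented against col-0 gave 0.075 ± 0.08 and did not pass (adjusted p = 0.80, edgeR). After the GC-length offset the first 2 values were 0.34 ± 0.06 and -0.26 ± 0.06, smaller but still called (adjusted p = 0.00039 and 0.0037, edgeR).

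Of the evening complex, LUX, its DNA-binding subunit, was higher in csld5, with and without the GC-length offset. LUX (AT3G46640, chromosome 3) measured 33.9, 33.5 and 33.1 CPM in complemented, 42.4, 40.9 and 42.4 CPM in csld5 and 28.5, 31.0 and 31.5 CPM in col-0 libraries. The 3 genotypes did not overlap, with complemented between the others. LUX rose in csld5 against col-0 by 0.47 ± 0.06 (adjusted p = 4.7e-05) and fell in complemented against csld5 by 0.32 ± 0.06 (adjusted p = 0.00078, edgeR's quasi-likelihood test for both), and the offset values were 0.44 and -0.30. The value for complemented against col-0 was 0.14 ± 0.06 and did not pass (adjusted p = 0.35, edgeR). The annotated exons of LUX share 698 bases with AT3G46650 on the opposite strand, which has no row in the count table, and the strand setting of the counting is not given, so reads of both may be counted at LUX.

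The other subunits are ELF3 and ELF4. ELF3 (AT2G25930, chromosome 2), the scaffold of the complex, measured 62.2, 64.3 and 58.9 CPM in complemented, 66.3, 71.4 and 76.8 CPM in csld5 and 61.5, 60.7 and 60.0 CPM in col-0 libraries. The csld5 libraries were above the other 6. ELF3 rose in csld5 against col-0 by 0.24 ± 0.06 (adjusted p = 0.0086) and fell in complemented against csld5 by 0.21 ± 0.06 (adjusted p = 0.016, edgeR's quasi-likelihood test for both). Under the GC-length offset these were 0.034 and -0.0087 and neither was called. Library totals lost both calls (0.15 and -0.12), and the second was lost without csld5 replicate 3 (-0.16) or complemented replicate 3 (-0.18) and with limma on TPM (-0.18). The exons of ELF3 share 24 bases with those of AT2G25940 and 21 with those of AT2G08135, both on the opposite strand.

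ELF4 (AT2G40080, chromosome 2), a small protein that helps ELF3 into the nucleus, measured 21.8, 28.7 and 20.7 CPM in complemented, 19.4, 19.1 and 17.1 CPM in csld5 and 14.5, 18.1 and 19.6 CPM in col-0 libraries. Every complemented library was above the other 6, and complemented replicate 2 was the highest. The change in csld5 against col-0 was 0.094 ± 0.13 and was not called. It turned to -0.026 without col-0 replicate 1, and under the GC-length offset it was 0.51 and called (adjusted p = 0.011, edgeR). ELF4 rose in complemented against csld5 by 0.36 ± 0.13 (adjusted p = 0.041, edgeR's quasi-likelihood test), but its sign turned to -0.21, uncalled, under the offset. That call was also lost without complemented replicate 2 (0.20), csld5 replicate 2 (0.38) or 3 (0.30), or col-0 replicate 2 (0.35), and with limma on TPM (0.32). Its exons, 619 bases in all, are the shortest of the 10. The complemented value against col-0 was 0.45 ± 0.13 and did not pass with edgeR (adjusted p = 0.13), but did with DESeq2 (adjusted p = 0.045).

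A ratio of 2 genes within a library does not depend on the library's scaling, and LHY against GI sets a dawn gene against an evening gene. On log2 TPM it was -2.31, -2.40 and -2.28 in complemented, -2.90, -2.95 and -3.21 in csld5 and -1.86, -1.69 and -1.92 in col-0 libraries. The 3 genotypes did not overlap, with csld5 lowest and complemented between. LHY against TOC1 was -3.18, -3.20 and -2.99 in complemented, -3.21, -3.22 and -3.47 in csld5 and -2.55, -2.34 and -2.68 in col-0 libraries. On that ratio the lowest complemented library (-3.20) lay next to the highest csld5 library (-3.21), and both genotypes lay below col-0. CCA1 against TOC1 was -2.27 to -2.11 in complemented, -2.15 to -1.89 in csld5 and -1.76 to -1.71 in col-0 libraries. These ratios still carry the trend with GC content and length: the exons of LHY hold 39.9% GC and those of GI 44.2%. In complemented against csld5 the fold changes of LHY and GI were 0.083 and -0.60 without the GC-length offset but 0.11 and -0.26 with it, so the 2 genes lay closer together under it. The ratios use genes already described and are given without a test.

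**Figure D4:**
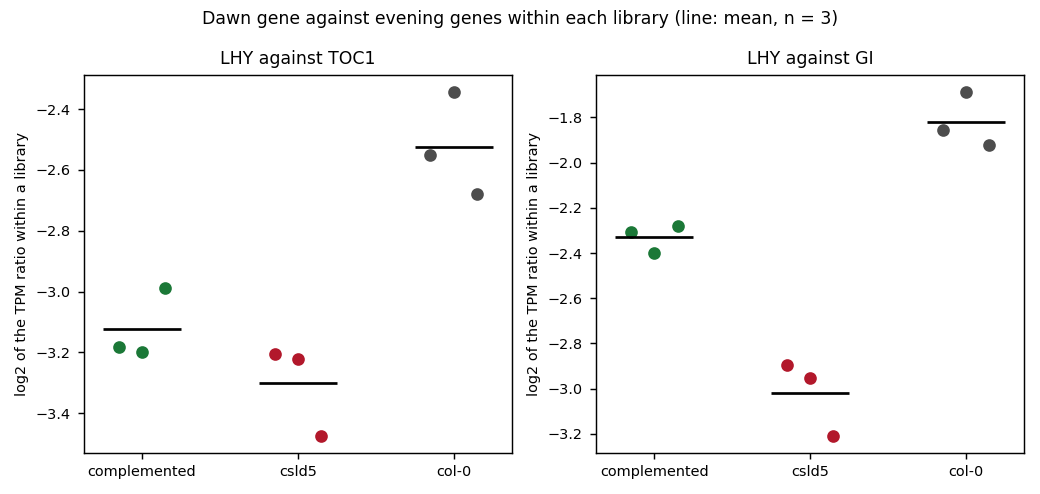
Log2 of the TPM ratio of LHY to TOC1 (left) and of LHY to GI (right) in each library of complemented, csld5 and col-0 plants. Points are libraries and lines the means of 3. For LHY to GI the genotypes separate, with csld5 at -3.21 to -2.90, complemented at -2.40 to -2.28 and col-0 at -1.92 to -1.69; the values have no GC-length offset.

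Within a genotype, the SD of these genes was below the all-gene median in 23 of 30 pairs of gene and genotype, and at or above it in 7. The SD of log2 CPM over 3 csld5 libraries was 0.020 for LHY, 0.024 for CCA1 and 0.030 for LUX, and 2.18%, 3.16% and 4.96% of all tested genes had a smaller one there. The widest spreads were those of PRR5 in col-0 (0.29; 82.2% of genes had a smaller SD), ELF4 in complemented (0.25; 82.1%) and ELF4 in col-0 (0.23; 76.9%). The all-gene medians of this SD were 0.095 in complemented, 0.13 in csld5 and 0.10 in col-0 libraries. All tested genes include ones with fewer reads than these 10, and counting error was not separated from the SD. A small SD over 3 libraries therefore does not show that a gene was held steady. Replicate 1 was the lowest of the 3 col-0 libraries for 8 of the 10 genes (31.5% of all genes were lowest there), and replicate 3 the highest for 7 (35.8%). Replicate 2 was the highest of the complemented libraries for 7 of 10 (30.9% of all genes). Over all 9 libraries ELF4 spanned 0.99, PRR5 0.94, GI 0.93, LHY 0.71 and LUX 0.57 on the log2 scale, and the other 5 from 0.20 to 0.49.

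The genes nearest in profile to the 3 with the widest span were sought among 18484 genes with an average log2 CPM of at least 1, by the root mean square difference of centred log2 CPM over the 9 libraries. GI had the closest neighbours, AGO2 (0.037), an Argonaute protein of antiviral silencing, TPLATE (0.038), an endocytic adaptor, AT5G65620 (0.052) and AT4G28300 (0.052). PRR5 was followed by CYP705A22 (0.089), AT3G26140 (0.093), ACR6 (0.098) and AT5G61820 (0.10). ELF4 was followed by AT5G42450 (0.12), AT5G43660 (0.13), AT1G33615 (0.14) and AT5G20110 (0.14). None of these belongs to the clock lists used here. Those lists hold only 10 core and 55 other genes beside the 18484 compared, so this absence is not a result.

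Among 7 partners of the morning loop, MYB activators of the RVE8 group and their LNK coactivators, 6 fell and 0 rose in csld5 against col-0, beside 20.4% of all genes lower. LNK4 measured 18.6, 14.0 and 11.5 CPM in csld5 and 25.01, 25.8 and 23.7 CPM in col-0 libraries, without overlap, and fell by 0.76 ± 0.14 (adjusted p = 0.0007, edgeR). LNK3 fell by 0.61 ± 0.12, LNK1 by 0.25 ± 0.05 and RVE4 by 0.25 ± 0.06. The median of the list was -0.25, and 6 were lower both under the GC-length offset and with library totals. Of the 7, edgeR called 0 in complemented against csld5, with 0 at an unadjusted p below 0.05. DESeq2 and limma on log2(TPM + 1) called 0 as well, but library totals called 5 higher, the GC-length offset 1 higher, and the fit without csld5 replicate 1 called 2 higher. Against col-0, RVE4 alone was called in complemented libraries, lower by 0.35 ± 0.06 (adjusted p = 0.009, edgeR). DESeq2 called 4 lower, given without its all-gene share. RVE4 was not called without col-0 replicate 1 or complemented replicate 1, when the list had 0 calls.

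Evening partners and F-box genes moved in both directions in csld5: of 10 tested, 5 rose and 3 fell. Over all genes 21.1% were higher and 20.4% lower. JMJ30, a histone demethylase gene with evening expression, measured 17.9, 20.2 and 21.9 CPM in csld5 and 8.88, 9.94 and 9.31 CPM in col-0 libraries, and rose by 1.09 ± 0.11 (adjusted p = 7.3e-06, edgeR). FKF1, a blue-light F-box protein that works with GI, measured 35.97, 37.3 and 43.3 CPM in csld5 and 15.6, 20.7 and 23.6 CPM in col-0 libraries, and rose by 0.96 ± 0.12 (0.58 under the GC-length offset). The ELF4 relatives ELF4-L2 and ELF4-L3 fell by 0.86 ± 0.09 and 0.80 ± 0.12 (-0.41 and -0.32 after it). The others called, named after their values were seen, were BOA, a close relative of LUX (0.48 ± 0.11), PRR3 (0.44 ± 0.11), ZTL (0.21 ± 0.05) and ELF4-L4 (-0.54 ± 0.10). Under the offset BOA (0.31) lost its call (adjusted p = 0.052, edgeR), PRR3 was 0.51, and ELF4-L4 was -0.20 and barely called (adjusted p = 0.04989, edgeR). The split became 3 higher and 5 lower, beside 15.4% and 17.7% of all genes, and ZTL stood at -0.23 and was called lower. The list's median was 0.22, and -0.16 under the offset.

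The same list gave, in complemented against csld5, 3 higher and 5 lower of 10, beside 19.8% and 21.1% of all genes. ELF4-L3 rose by 1.03 ± 0.12, ELF4-L2 by 0.79 ± 0.09 and ELF4-L4 by 0.77 ± 0.10, and ZTL fell by 0.32 ± 0.05. After the GC-length offset these were 0.41, 0.22, 0.35 and 0.095, of which ELF4-L2 and ZTL were no longer called. The split was then 2 higher and 0 lower, beside 11.4% and 15.2% of all genes. Library totals gave 3 higher and 3 lower, beside 42.3% of all genes called. Against col-0, JMJ30 alone was called, with 14.4, 15.8 and 12.5 CPM in complemented libraries, and rose by 0.60 ± 0.11 (adjusted p = 0.011, edgeR). The list had 0 calls without col-0 replicate 1, complemented replicate 1 or complemented replicate 2.

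Genes expressed under clock control showed counts of both signs. Of 9 genes of the day and evening, 5 rose and 2 fell in csld5 against col-0, beside 21.1% and 20.4% of all genes. Their median was 0.33 (0.24 under the GC-length offset). GRP7, an RNA-binding protein with an evening peak, measured 3628, 3815 and 3427 CPM in csld5 and 2061, 2069 and 2331 CPM in col-0 libraries, and rose by 0.75 ± 0.07 (adjusted p = 5.1e-06, edgeR). AT4G33980 rose by 0.90 ± 0.18, COR27, a cold- and clock-regulated gene, by 0.87 ± 0.15, and CAT3, an evening catalase, by 0.41 ± 0.08. The 2 that fell, named after their values were seen, were the cold-response regulators CBF1 (-1.70 ± 0.51) and CBF2 (-1.47 ± 0.31), and CBF1 rested on 2 to 12 reads in a csld5 library and 20 to 28 in a col-0 library. Of 11 morning genes tested, 4 fell and 0 rose: AT1G69570 (-0.55 ± 0.18), RVE1 (-0.38 ± 0.11), CDF2, a repressor of flowering genes (-0.29 ± 0.10), and RVE7 (-0.20 ± 0.07). Of all genes 20.4% fell and 21.1% rose. The median of the morning list was -0.096. Only 1 of its falls was called without col-0 replicate 2 or 3 or without csld5 replicate 1 or 2. AT1G69570 and RVE7 were not called under the GC-length offset.

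The day and evening genes gave, in complemented against csld5, 1 higher and 3 lower of 9, CBF1 at 1.85 ± 0.51, AT4G33980 at -0.58 ± 0.17, CAT3 at -0.53 ± 0.08 and GRP7 at -0.45 ± 0.07. The morning genes gave 0 higher and 2 lower of 11, the catalase CAT2 (-0.38 ± 0.07) and COL2 (-0.31 ± 0.11). Over all genes 19.8% were higher and 21.1% lower in that comparison. For complemented against col-0 edgeR called 0 of 9 and 0 of 11 in these lists, with 4 and 6 at an unadjusted p below 0.05. DESeq2 called 2 and 0, and limma on log2(TPM + 1) 0 and 0, again without an all-gene share.

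Of 16 further regulators and photoreceptors, 1 rose and 3 fell in csld5 against col-0, beside 21.1% of all genes higher and 20.4% lower. TIC, a clock regulator of the night, rose by 0.41 ± 0.09 but stood at -0.13, called lower, under the GC-length offset. CKB4 (-0.23 ± 0.07) and CKB3 (-0.20 ± 0.06), subunits of the kinase CK2, and HY5, a light-response regulator (-0.32 ± 0.11), lost their calls under the offset. It gave 0 higher and 5 lower, beside 15.4% and 17.7% of all genes. With no offset, the falls were down to 1 without col-0 replicate 1 or 3 or without csld5 replicate 2. Between complemented and csld5 libraries 4 rose and 6 fell, among them TIC (-0.51 ± 0.09), CRY1, a blue-light receptor (-0.30 ± 0.06), PHYA, a far-red light receptor (-0.28 ± 0.07), and PRMT5, a methyltransferase of splicing proteins (-0.23 ± 0.05). Of all genes 19.8% rose and 21.1% fell there. Under the offset TIC and PRMT5 turned to 0.025 and 0.037, and PHYA stood at -0.032. The split was then 2 higher and 1 lower, beside 11.4% and 15.2% of all genes. For complemented against col-0, edgeR, DESeq2 and limma on log2(TPM + 1) called 0 of 16, with 3 at an unadjusted p below 0.05 in edgeR.

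**Figure D5:**
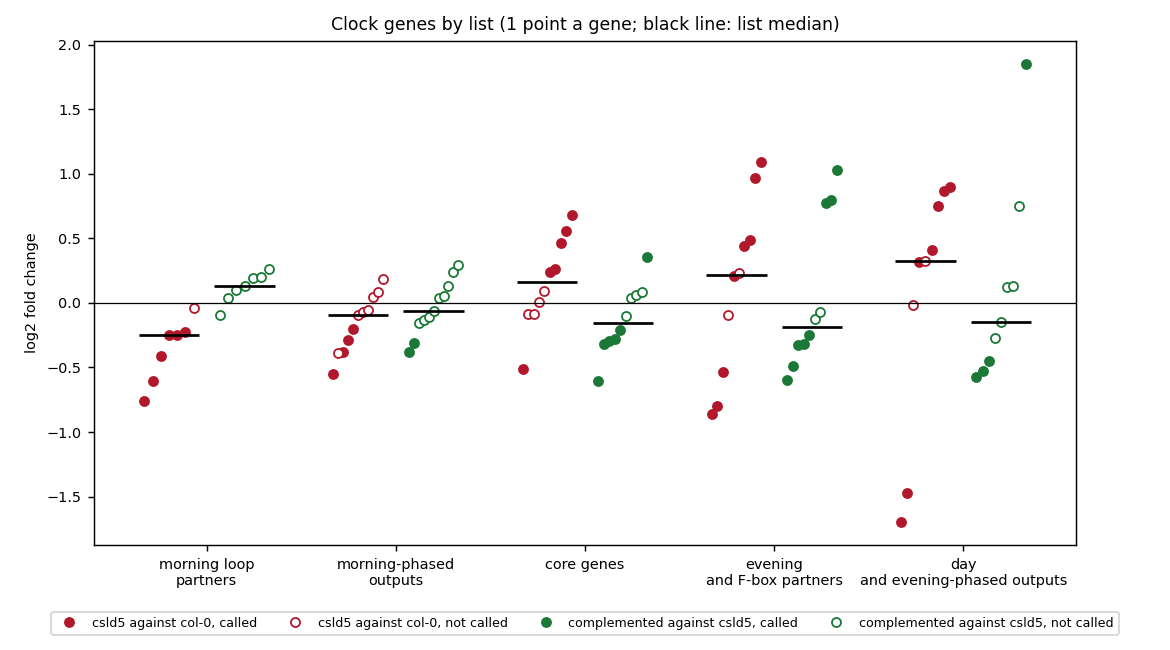
Log2 fold change (y axis) of each tested gene of 5 clock lists in csld5 against col-0 (red) and complemented against csld5 (green). Filled points are called and black lines are medians. The morning loop partners sit at or below 0 in csld5 (median -0.25), and the core, evening and day lists hold genes on both sides (medians 0.16, 0.22 and 0.33); under the GC-length offset the evening list's median is -0.16.

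Measures that moved with the genotypes are set beside these results. Fold changes followed exon GC content and length across 22580 genes, with Spearman's rho of 0.40 and 0.37 for csld5 over col-0, -0.46 and -0.45 for complemented over csld5, and -0.13 and -0.18 for complemented over col-0; genes are not independent replicates. The library whose deviation followed them most was csld5 replicate 3 (R squared 0.339, against 0.0254 to 0.215 in the other 8). Without it 6 core genes were called in csld5 against col-0, while complemented against csld5 had 3.

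Marker genes of tissues that a dissected tip can hold were compared as well. The first counts given are for csld5 against col-0, where 41.5% of all genes were called by edgeR. The second are for complemented against csld5, where that share was 40.9%. Summed TPM of 6 green tissue markers was 14790 to 15870 in complemented, 17800 to 18260 in csld5 and 15820 to 17020 in col-0 libraries, with 2 higher and 0 lower in csld5 against col-0, then 0 higher and 5 lower in complemented against csld5. That of 6 late pollen markers was 217.8 to 254.7, 242.3 to 442.4 and 155.9 to 250.4, with 5 higher and 0 lower, then 0 higher and 3 lower. For 7 tapetum markers, of the anther's nurse tissue, it was 442.3 to 584, 264.3 to 438.4 and 357.9 to 464.4, with 0 higher and 2 lower, then 2 higher and 0 lower. For 6 vascular markers it was 70.1 to 75.8, 76 to 103.2 and 74.7 to 79.4, with 1 higher and 0 lower, then 0 higher and 4 lower. The 8 meristem markers summed to 256.4 to 267.6, 236.3 to 262 and 276.7 to 280, with 3 higher and 3 lower, then 1 higher and 3 lower, of 7 tested. In the first comparison 2 of 7 tapetum, 2 of 6 green tissue and 1 of 6 vascular markers were called. Those shares are below the all-gene share, while 6 of 7 meristem and 5 of 6 late pollen markers are above it. In the second, tapetum (2 of 7) alone was below it. Whether any list departs from the all-gene share was not tested. These marker calls are without the GC-length offset, and some changed under it. In csld5 against col-0 the tapetum falls (DYT1 -0.63, AT5G07230 -0.31) lost their calls, and the green marker LHCB1.1 was called lower (-0.22). Of the meristem markers, STM (0.096) and AP1 (-0.13) lost their calls, and LFY was called lower (-0.77). In complemented against csld5 the green markers LHCB1.1, LHCB3 and LHCA1 and the vascular PXY, SUC2 and XCP1 lost theirs. So did the meristem marker WUS (-0.47), the late pollen marker ACT12 (-0.34) and the tapetum marker DYT1 (0.57). The tapetum markers CYP703A2 and LAP6 and the meristem marker CLV1 (0.29) were then called higher. Between complemented and col-0 libraries edgeR called 0 markers. At an unadjusted p below 0.05 there were 1, 1, 3, 4 and 0 in the meristem, late pollen, tapetum, green tissue and vascular lists. DESeq2 called 1 late pollen marker, 1 tapetum marker and 2 green tissue markers. The unadjusted and DESeq2 counts have no all-gene share beside them. The part of tissue composition, of GC content and length, and of harvest time in the clock genes' values was not tested beyond the GC-length offset.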

How the data were processed

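Messenger RNA was sequenced in 9 libraries of dissected inflorescence meristems, 3 for each of complemented, csld5 and col-0 plants, grouped by sample title. Deposited by the authors were a table of raw read counts and one of TPM, both by gene. Trimmomatic 0.39, HISAT2 2.2.1, featureCounts 2.0.6 and TAIR10 are named per the submitters' processing notes, without settings or strand, and no source used here says which tool made the TPM table. TPM cells are missing in 8616 places, at 643 of them despite reads in the count table, so the TPM table was not computed from these counts as they stand. Missing cells were set to 0. Every gene has a read in col-0 replicate 1, where other libraries have 932 to 1540 genes at 0. Total counts of 35543318 to 45679471 per library set the precision, and core genes had 421 reads or more in every library.

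The test was edgeR's quasi-likelihood F test (4.0.16, R 4.3.3) on the counts, after its default filter and TMM scaling, with genotype fitted over the 9 libraries together and Benjamini-Hochberg adjustment over 22671 genes. An adjusted p below 0.05 made a call, whatever the fold. Fold changes carry standard errors, and levels the SD over 3 libraries. Alternatives were other scalings and filters, DESeq2 1.42.0, limma 3.58.1 on log2(TPM + 1) and log2(TPM + 0.1) for genes at 1 TPM in 3 libraries or unfiltered, fits of 2 genotypes, the replicate number as a block, a fold minimum, each library left out, and an offset from a smooth curve on exon GC content and length (the GC-length offset; mgcv 1.9.3, covariates held within percentiles 1 to 99, 22580 genes).

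Gene models and sequences are RefSeq's TAIR10.1. RefSeq gives no symbol for some listed genes, which are named by locus. COL1, listed among morning genes, was not used here, and ELF4-L1 and CLV3 did not pass the filter. The core genes and lists were chosen with earlier results of these data known. The genes named were all core genes, CSLD5, up to 4 called members of each other list with the smallest p in a comparison, and the 4 nearest profiles of the 3 core genes with the widest range. Markers, and other genes named after their values were seen, stand outside this rule.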

Additional observations from a re-analysis of the deposited data

How the results depend on the processing

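The counts of core genes called were 6 in csld5 against col-0, 6 in complemented against csld5 and 1 in complemented against col-0. With the replicate number as a block they were 6, 6 and 1. Over all genes the block gave 4873 higher and 4667 lower, 4627 and 4877, and 229 and 139. Deviations of same-numbered libraries of different genotypes correlated at -0.11 to 0.20 in 9 pairs, against -0.24 to 0.18 in 18 other pairs. These ranges overlap, and with 3 libraries a genotype they cannot settle whether the numbers pair the libraries. A fold minimum of 1 on the log2 scale left 0 in each comparison, since no core gene changed by that much. In complemented against csld5 the count was 3 with limma on TPM under both pseudocounts and without its filter, and 2 with the GC-length offset, with or without the block. In complemented against col-0 it was 0 with library totals and with limma in all 3 forms, and 2 with DESeq2. Leaving out each library in turn gave 5 to 6, 3 to 6 and 0 to 1 in the 3 comparisons.

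Among the core genes signs turned in the following cases, and of these only ELF4 in complemented against csld5 was called, without the offset. CCA1 in csld5 against col-0 was -0.075 with library totals, -0.0042 with a filter of 1 CPM in 3 libraries, -0.070 with the GC-length offset and -0.069 with the block added, and ran from -0.038 to 0.066 over libraries left out. ELF4 in csld5 against col-0 ran from -0.026 to 0.19. In complemented against csld5 the offset gave -0.029 for PRR9, 0.094 for TOC1 and -0.21 for ELF4, and with the block -0.030, 0.095 and -0.22. PRR9 ran from -0.034 to 0.11 over libraries left out there. In complemented against col-0 such ranges were -0.12 to 0.021 for PRR9, -0.047 to 0.012 for PRR7 and -0.0052 to 0.057 for ELF3. The cause was not tested. LHY in csld5 against col-0, and GI and LUX in that comparison and in complemented against csld5, kept direction and call in every setting but the fold minimum. The fewest reads of a core gene in a library were 421, for LHY, and counting error was not separated from the spread between libraries.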
